A study of Mus musculus with 2 samples.

Results

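The genes described are 46 subunits and motors of the ATP-dependent chromatin remodelling complexes of the BAF, ISWI, CHD and INO80 families, with the related ATPases Atrx and Hells. They were chosen by symbol, as known members of these complexes, and matched to the files through their Ensembl gene identifiers. All 46 were found among the 28009 genes for which transcript values could be summed, and 45 of them reached 1 FPKM (fragments per kilobase of transcript, scaled to the mapped fragments of a library) in at least 1 of the stages compared. Across all genes, 12220 reached that level.

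The study measured polyadenylated RNA of mouse haematopoietic stem cells (HSCs), the cells that renew the blood, and its title concerns how the genome is re-arranged in space between fetal and adult HSCs. The adult cells came from bone marrow of 6 to 8 week old B6129SF1 mice, and the labels list 2 such samples. Fetal HSCs were sorted from the liver at embryonic day 14.5, and no sample, strain or replicate number of theirs is given in the labels used here. No genetic change or treatment is named for either stage, and the surface markers of the sort are not given. The 2 deposited tables, 1 per gene and 1 per transcript, each hold 1 column headed FL (fetal liver) and 1 headed BM (bone marrow). Each column gives 1 value per feature, so no spread between replicates can be given, no test was made, the depth is unknown, and every difference below describes these columns and not the stages at large.

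Chromatin remodellers use ATP to slide, evict or exchange nucleosomes. BAF complexes open regulatory DNA around the motors Smarca4 (BRG1) or Smarca2 (BRM), ISWI complexes space nucleosomes, the CHD motors Chd3 and Chd4 work with histone deacetylases in the NuRD complex, and the INO80 family handles the histone variant H2A.Z. Many subunits have paralogues, and some of these exclude each other from a single complex. For those, the relative level bears on which assemblies a cell can form. Shares below are given for families of paralogues, and whether the members of a family exclude each other was not tested. Several of these genes, Smarca4, Chd4 and Mbd3 among them, are known from work on blood formation.

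The column headings of the tables did not match for these genes. Over the 45 expressed members, the BM column of the gene table lay within 10% of a constant ratio to the transcript table's FL column for 35 members (Pearson r = 0.99 across genes, which are not independent replicates), against 10 members for the transcript table's BM column (r = 0.92). The FL column of the gene table was within 10% for 8 members against the transcript table's FL and for 7 against its BM column. The comparison below therefore uses the transcript table, summed per gene, for both stages, and keeps the gene table's BM column only as a check of the fetal value. It takes the headings of the transcript table as they stand, and that they are right was not tested. HSC genes were present in both columns: the 9 markers Kit, Ly6a, Slamf1, Procr, Mecom, Meis1, Hlf, Gata2 and Tal1 each exceeded 1 FPKM and summed to 464 FPKM in FL and 782 in BM.

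Most remodeller genes had similar levels at both stages. With each ratio taken as log2 of BM over FL after adding 0.1 FPKM and centred on the median over genes that reach 1 FPKM in each column, 37 of the 45 members differed by less than 2-fold. At least 2-fold higher in adult BM were 5 members, Smarca2, Arid1b, Smarca1, Chd9 and Atrx, or 11.1% of those expressed, where 13.3% of all expressed genes were that much higher. At least 2-fold lower were 3 members, Dpf1, Phf10 and Chd7, or 6.67%, against 8.82% of all expressed genes. Neither share is above that of all genes. Were the headings of the transcript table exchanged, each ratio would change sign, and the 5 would be the lower and the 3 the higher members in BM. The median relative log2 ratio of the members was -0.07, with quartiles of -0.41 and 0.25, and that of all expressed genes was 0.02. Scaling the columns by their upper quartiles raised the median of all expressed genes by 0.12 on the log2 scale and put 6 members higher and 2 lower, because Chd2 came in and Phf10 dropped out. Members nearest the 2-fold line were Phf10 just past it at -1.01, and Chd2 at 0.92 and Dpf3 at -0.87 just short of it. In these bulk samples, fewer cells of a type and less RNA per cell cannot be told apart.

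**Figure D1:**
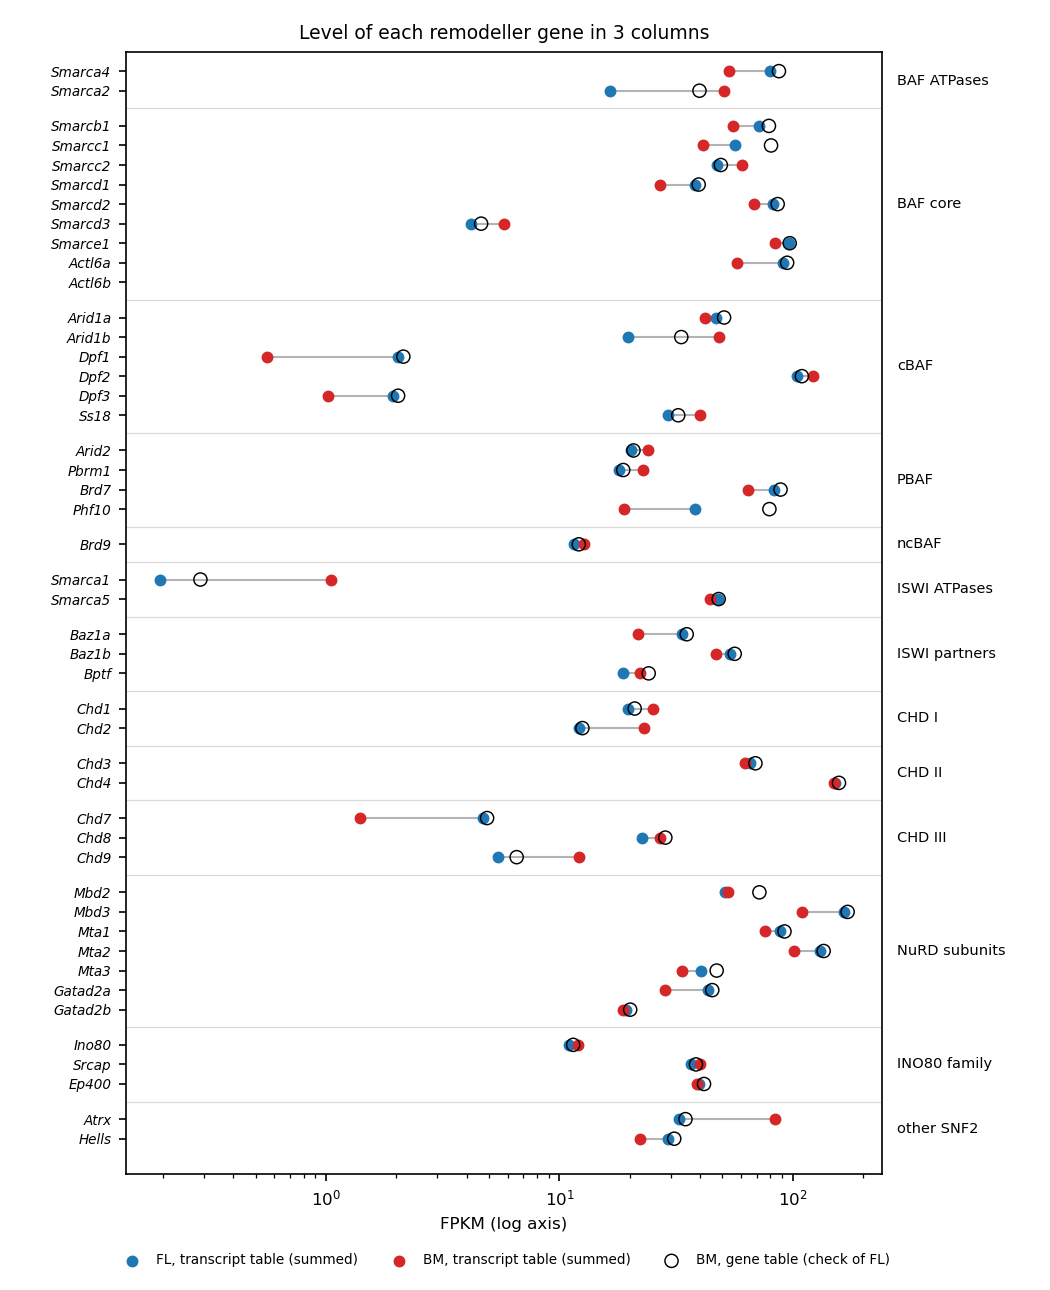
Summed FPKM of each remodeller gene (log axis) for the transcript table (FL, BM) and for the BM values of the gene table, grouped by complex, 1 value per column with no replicates. Summed levels run from Smarca1 at 0.195 FPKM to Mbd3 at 166 FPKM in FL, Actl6b at 0 has no point, and the points of the stages lie close together for most genes.

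The gene table gave a different fetal value for 3 members. Its BM column stood more than 1.5-fold from the summed FL transcripts, after centring, for Smarca2 (2.30-fold), Phf10 (1.99-fold) and Arid1b (1.62-fold), where 13.4% of all expressed genes did so. All 3 are among the 8 members past 2-fold, so their ratios are uncertain. With the gene-table column as the fetal value, Smarca2, Arid1b and Chd9 no longer passed 2-fold and Smarca1, Atrx, Dpf1, Phf10 and Chd7 still did. For Smarca2 the relative log2 ratio was 1.61 by the transcript table and 0.46 by the gene table, and for Arid1b 1.29 and 0.65. Most other members differed little between the tables in their fetal level. Chd4 was at 158 FPKM in the gene table, Mbd3 at 172, Mta2 at 136, Dpf2 at 110 and Smarce1 at 97.1, each close to its summed value. At the low end, Dpf1 was at 2.14 FPKM, Dpf3 at 2.03 and Smarcd3 at 4.62. Short of 1.5-fold but visibly apart were Smarcc1 (80.8 FPKM in the gene table and 56.5 by transcripts), Mbd2 (72.0 and 51.3), Smarca1 (0.289 and 0.195), Bptf (24.1 and 18.8), Chd8 (28.5 and 22.5) and Chd9 (6.56 and 5.48). In each of these the gene table gave the larger value.

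**Figure D2:**
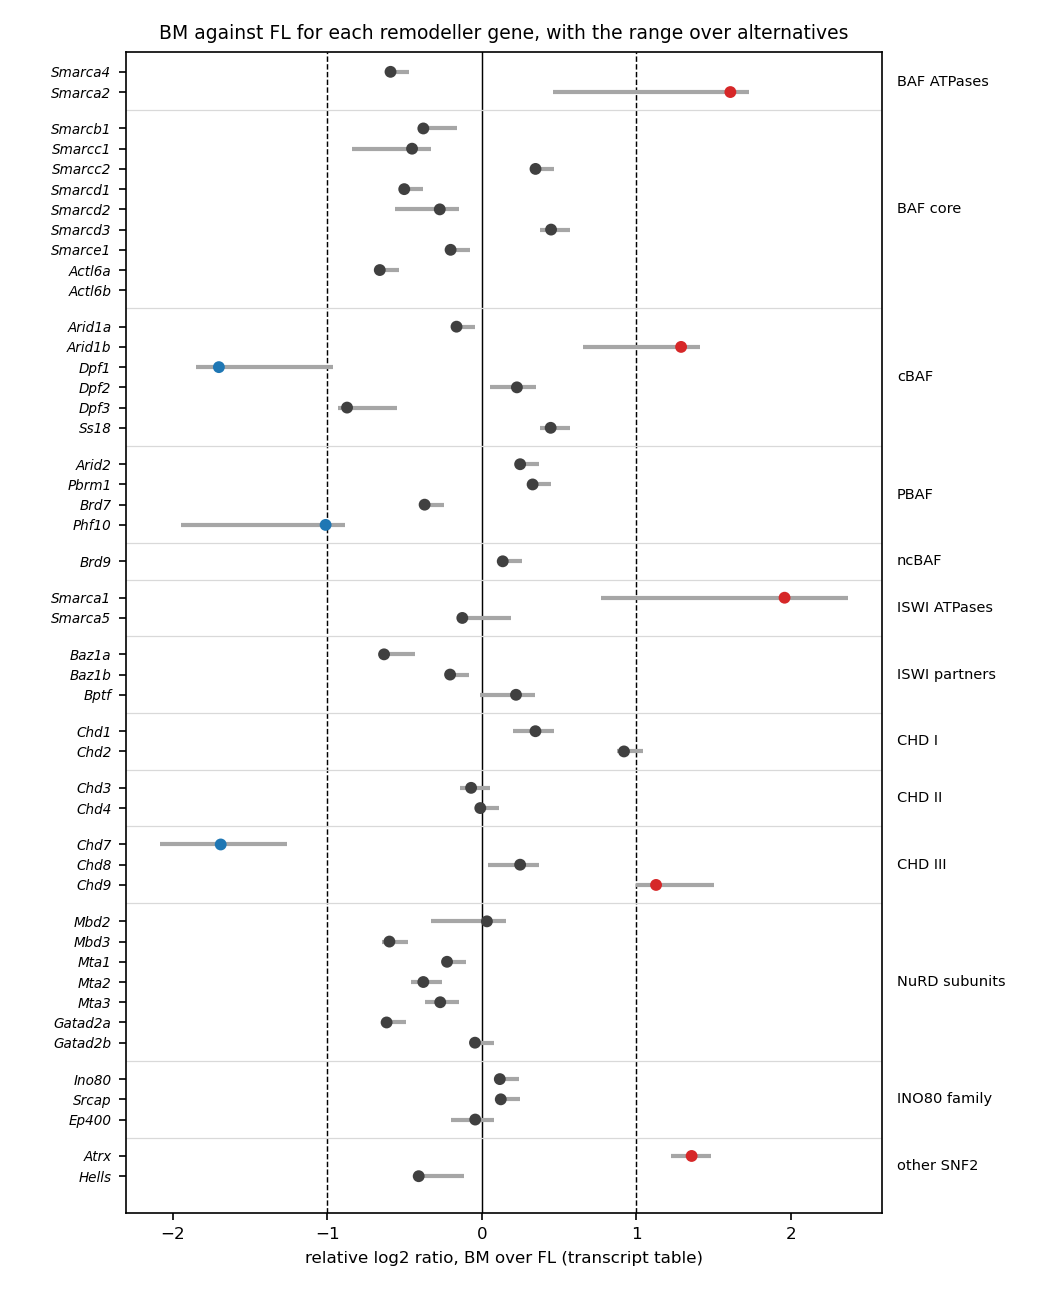
Relative log2 ratio of BM over FL for each expressed remodeller gene from the transcript table (points). Grey bars give the range over the alternatives tried, dashed lines mark 2-fold, and there are no replicates. The bars of Atrx and Chd7 lie wholly past the dashed lines. Smarca2 has its point at 1.61, and its bar reaches down to 0.46, the value with the BM column of the gene table as the fetal value. The bars of Smarca1 and Dpf1 reach inside the lines, to 0.77 and -0.97 with a pseudocount of 1 FPKM.

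Among the motors of BAF, the fetal column was dominated by Smarca4 and, by summed transcripts, the adult column held both paralogues at like levels. Smarca4 was at 79.8 FPKM in FL and 53.2 in BM, a relative log2 ratio of -0.59. Smarca2 (ENSMUSG00000024921, chromosome 19) was at 16.5 FPKM in FL and 50.6 in BM, 3.05-fold higher in BM. Smarca4 thus made up 82.9% of the pair in FL and 51.2% in BM, a move of 31.7 percentage points. With protein-coding transcripts only, Smarca4 held 62.6% in BM, and with the highest transcript of each gene 58.1%. It thus still led in BM by both of these measures. The gene table's BM column put Smarca2 at 39.9 FPKM and Smarca4 at 87.3 FPKM, a Smarca4 share of 68.7%, and the move was then 17.4 points. The direction was the same, and the size depended on which fetal value was used.

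The start regions of the paralogous motors are shown because the balance of the BAF pair differed by stage, whereas 1 gene dominated the ISWI pair in both columns. Each line gives the 140 bases from 250 to 111 bases before the RefSeq gene start (GRCm38.p6), 5′ to 3′ on the gene's strand, and capitals mark matches on either strand to the GC box GGGCGG or to the NRF1 half-site GCATGCGC. The windows are chr9:21615919-21616058 (plus strand), chr19:26604910-26605049 (plus), chr8:80739570-80739709 (minus) and chrX:47892724-47892863 (minus).
Smarca4: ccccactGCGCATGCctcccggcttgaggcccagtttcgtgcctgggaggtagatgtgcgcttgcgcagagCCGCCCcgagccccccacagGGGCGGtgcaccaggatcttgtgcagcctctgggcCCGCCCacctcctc
Smarca2: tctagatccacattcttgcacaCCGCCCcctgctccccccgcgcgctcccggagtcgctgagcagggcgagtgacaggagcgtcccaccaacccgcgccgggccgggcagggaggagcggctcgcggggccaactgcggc
Smarca5: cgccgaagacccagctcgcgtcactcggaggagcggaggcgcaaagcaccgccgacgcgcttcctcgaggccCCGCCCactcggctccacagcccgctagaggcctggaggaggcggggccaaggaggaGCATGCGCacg
Smarca1: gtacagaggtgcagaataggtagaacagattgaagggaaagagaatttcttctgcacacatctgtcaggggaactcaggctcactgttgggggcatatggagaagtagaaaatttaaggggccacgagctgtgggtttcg

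The Smarca4 window held 3 GC boxes, 1 NRF1 half-site and 9 CpG dinucleotides, and the Smarca2 window held 1 GC box and 16 CpG. Smarca5 had 1 GC box, 1 NRF1 half-site and 18 CpG, and the window of Smarca1, the lowest motor, had neither motif and 2 CpG. The window of Chd4, the highest motor, also had neither motif and 1 CpG. Those of Srcap and Atrx had neither and 2 CpG each, whereas Chd8 and Ino80 each had 1 GC box, with 11 and 14 CpG. RefSeq windows were matched for 36 of the 46 members. GC boxes occurred in 14 of these 36 (38.9%) and in 15.1% of all 27025 promoter windows of that length, and the NRF1 half-site in 2 of 36 against 0.688%. The ETS motif CCGGAAG and the E-box CACGTG were each found in 1 member window, against 2.28% and 2.68% of all windows. The median window held 10 CpG for the members and 3 for all promoters. The set of all promoters was not limited to expressed genes, whereas nearly all members were expressed. Windows of Arid1b, Chd9, Dpf2, Smarcd1 and Smarcd2 hold an annotated exon of the gene. These matches describe letters only, and no binding was measured.

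Among the core and actin-related subunits of BAF, none of the 8 expressed passed 2-fold, and their fetal levels ran from 4.18 FPKM (Smarcd3) to 96.3 FPKM (Smarce1). Not every BAF form need hold all of them. Their median relative log2 ratio was -0.33, and 6 of the 8 lay below 0, also after upper-quartile scaling. Of the 12220 expressed genes, 6006 lay below 0, or 5145 after that scaling, and 13.3% passed 2-fold upward and 8.82% downward. Smarcb1, the subunit that anchors BAF on the nucleosome, was at 72.0 FPKM in FL and 55.6 in BM. Smarce1, a DNA-binding subunit, was at 96.3 FPKM in FL and 84.0 in BM, and Actl6a, an actin-related subunit, was at 91.0 FPKM in FL and 57.8 in BM. Actl6b, the paralogue used in neurons, was listed at 0 in both columns.

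Scaffold subunits changed order between the columns. Smarcc1 (BAF155) was at 56.5 FPKM in FL and 41.5 in BM, and Smarcc2 (BAF170) at 47.4 FPKM in FL and 60.6 in BM. Smarcc1 was the higher of the pair in FL with 54.4% of the sum and the lower in BM with 40.6%. With the gene table as the fetal value the move was larger, 21.5 points in place of 13.8. Among the Smarcd subunits, which link BAF to transcription factors, Smarcd2 led in both columns with 82.1 FPKM in FL and 68.2 in BM. Smarcd1 was at 38.0 FPKM in FL and 26.9 in BM, and Smarcd3 at 4.18 FPKM in FL and 5.76 in BM. The order of the 3 did not change, and Smarcd2 is the one known for its part in granulocyte formation.

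Subunits that define canonical BAF included a further shift in paralogue shares. Arid1a, which bridges the core and the motor, was at 46.8 FPKM in FL and 41.9 in BM. Its paralogue Arid1b (ENSMUSG00000069729, chromosome 17) was at 19.6 FPKM in FL and 48.3 in BM, 2.44-fold higher. By summed transcripts, the Arid1a share of the pair was 70.5% in FL and 46.5% in BM. In BM it was 48.3% with protein-coding transcripts only and 55.4% with the highest transcript of each gene. Which of the pair was higher in BM thus depended on the transcripts counted. With the gene table as the fetal value the Arid1a share was 60.4% in the fetal cells and the move was 13.9 points.

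Dpf2, a reader of histone acetylation, was the main member of its family at 104 FPKM in FL and 122 in BM. Dpf1 (ENSMUSG00000030584, chromosome 7), known from neurons, was 3.26-fold lower in BM, from 2.03 to 0.556 FPKM, and Dpf3, known from heart and muscle, was at 1.93 FPKM in FL and 1.01 in BM. Dpf1 did not pass 2-fold with a pseudocount of 1 FPKM, and Dpf2 held 96.3% of the family in FL and 98.7% in BM. Ss18, which joins canonical and non-canonical BAF, was at 29.1 FPKM in FL and 39.9 in BM.

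Subunits particular to PBAF by definition were level except for Phf10. Pbrm1, with its many bromodomains, was at 18.0 FPKM in FL and 22.7 in BM, and Arid2 was at 20.2 FPKM in FL and 24.1 in BM. Brd7 was at 83.1 FPKM in FL and 64.5 in BM. Phf10 (BAF45a, ENSMUSG00000023883, chromosome 17), known for a role in progenitor growth, was 2.02-fold lower in BM, from 38.0 to 18.9 FPKM. The gene table gave Phf10 79.5 FPKM in its BM column, so its log2 ratio was -1.95 with that fetal value and short of 2-fold after upper-quartile scaling or with a pseudocount of 1 FPKM. Exons of Phf10 overlap those of the protein-coding gene 1600012H06Rik. Brd9, the mark of non-canonical BAF, was at 11.6 FPKM in FL and 12.8 in BM. Over all BAF members, 2 of 21 expressed were higher, 2 were lower, and the median was -0.20. Each count is 9.52%, against 13.3% and 8.82% of all expressed genes.

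The ISWI family rested on Smarca5 (SNF2H) in both columns. Smarca5, required for blood cell formation, was at 47.9 FPKM in FL and 44.0 in BM. Smarca1 (SNF2L, ENSMUSG00000031099, X chromosome) was at 0.195 FPKM in FL and 1.05 in BM, 3.89-fold higher but near the lower limit, and not past 2-fold with a pseudocount of 1 FPKM. Smarca5 kept 99.6% of the pair in FL and 97.7% in BM. Its small ratio of -0.13 turned positive when only protein-coding transcripts, or only its highest transcript, were used. Among the partner subunits, Baz1a (ACF1) was at 33.6 FPKM in FL and 21.7 in BM. Baz1b (WSTF) was at 53.9 FPKM in FL and 46.9 in BM. Bptf, the large subunit of NURF that reads methylated histone H3, was at 18.8 FPKM in FL and 22.1 in BM, a ratio of 0.22 that was -0.01 with the gene-table fetal value. No partner passed 2-fold.

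The CHD motors outside NuRD included 1 gene higher and 1 lower by the 2-fold line. That line was passed upward by 13.3% and downward by 8.82% of the 12220 expressed genes. Chd1, which is linked to elongating RNA polymerase, was at 19.6 FPKM in FL and 25.1 in BM. Chd2 was at 12.1 FPKM in FL and 23.1 in BM, and its share of the pair went from 38.1% to 47.9%, which is 9.78 points and just short of the 10 points used to name a family. It was past that line at 10.5 points with the gene-table fetal value, 10.1 with coding transcripts alone and 11.7 with the highest transcript of each gene. Chd7 (ENSMUSG00000041235, chromosome 4), the gene of CHARGE syndrome, was 3.23-fold lower in BM, from 4.72 to 1.40 FPKM. Chd9 (ENSMUSG00000056608, chromosome 8) was 2.18-fold higher, from 5.48 to 12.1 FPKM. Chd8, a known partner of CTCF and repressor of beta-catenin targets, was the main member of this class at 22.5 FPKM in FL and 26.9 in BM. Of the sum of Chd7, Chd8 and Chd9, Chd7 held 14.4% in FL and 3.46% in BM, and Chd9 16.7% and 30.02%. Chd6, also of this class but not among the members, was at 13.2 FPKM in FL and 20.8 in BM. It is left out of these shares, which would be smaller with it. The gene table gave 4.90 FPKM for Chd7 and 6.56 FPKM for Chd9 in the column that matches the fetal one, and the Chd9 ratio was then just under the line.

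The 3 highest fetal values of any member, those of Mbd3, Chd4 and Mta2, belonged to NuRD, and none of its 9 members passed 2-fold. Chd4, its main motor and a gene that HSCs need, was at 151 FPKM in both columns. Chd3 was at 65.6 FPKM in FL and 62.8 in BM, and the Chd4 share of the pair was 69.7% and 70.6%. The signs of the ratios of both motors turned with the scaling. Mbd3, which scaffolds NuRD, was at 166 FPKM in FL and 110 in BM. Mbd2, its methyl-CpG-binding paralogue, was at 51.3 FPKM in FL and 52.7 in BM. The MTA subunits, which hold the deacetylases, kept their order: Mta2 was at 131 FPKM in FL and 101 in BM, Mta1 at 88.4 FPKM and 75.9 FPKM, and Mta3 at 40.4 FPKM and 33.6 FPKM. Gatad2a, which ties the motor to the rest, was at 43.5 FPKM in FL and 28.5 in BM, and Gatad2b at 19.3 FPKM and 18.8 FPKM. The median of the 9 was -0.23 and 8 lay below 0, or 5 of 9 after upper-quartile scaling. Among the 12220 expressed genes, 6006 lay below 0, or 5145 after that scaling. Past the 2-fold line were 13.3% of those genes upward in BM and 8.82% downward.

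The INO80 family motors were level. Ino80 was at 11.0 FPKM in FL and 12.0 in BM. Srcap, which deposits H2A.Z, was at 36.8 FPKM in FL and 40.3 in BM. Ep400, the motor of the TIP60 complex, was at 39.9 FPKM in FL and 38.8 in BM. Atrx (ENSMUSG00000031229, X chromosome), which deposits histone H3.3 with Daxx in repeats, was 2.56-fold higher in BM, from 32.5 to 83.8 FPKM. The gene table gave 34.7 FPKM for its fetal value and a log2 ratio of 1.39, and Atrx passed 2-fold in each alternative tried. Daxx, its partner, was at 32.1 FPKM in FL and 23.9 in BM. Hells (LSH), an ATPase needed for DNA methylation and abundant in dividing cells, was at 29.2 FPKM in FL and 22.1 in BM. The 10 proliferation markers summed to 775 FPKM in FL and 377 in BM, with 6 of the 10 at least 2-fold lower, and their part in the ratios of Hells and the core subunits was not tested.

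Of 14 paralogue families, 4 moved by 10 percentage points or more in share. They were the motors Smarca4 and Smarca2, the scaffolds Smarcc1 and Smarcc2, Arid1a with Arid1b, and the set of Chd7, Chd8 and Chd9. That set leaves out Chd6, which was higher than Chd7 and Chd9 in both columns. Its place among the 4 depends on that choice. In the first 3, the paralogue that was lower in FL took about equal or the larger share of summed FPKM in BM. Smarca4 still led in BM with protein-coding transcripts only, and Smarca4 and Arid1a with the highest transcript of each gene. The families of Gatad2a and Gatad2b (9.03 points) and Mbd2 and Mbd3 (8.78 points) were just short of 10 points. The Baz1a and Baz1b shares moved by 6.76 points. Those of Chd4, Mta, Smarcd, Dpf, Smarca5 and Actl6 moved by less than 5 points.

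**Figure D3:**
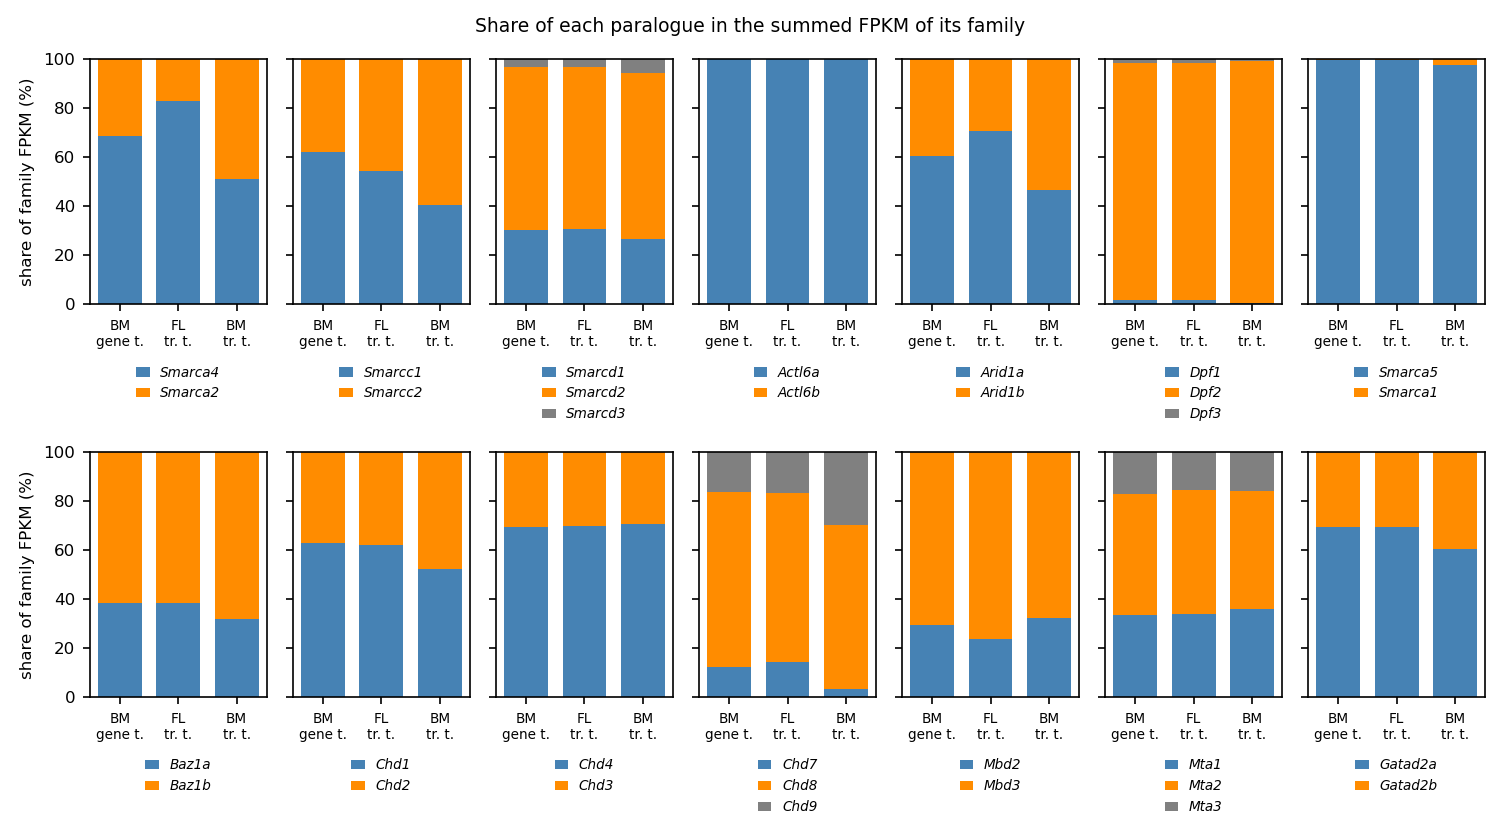
Share of each paralogue in its family total, in percent of summed FPKM, for the transcript table (FL, BM) and the BM values of the gene table. The bars stand, from the left, for the gene-table BM (gene t.), the transcript-table FL and the transcript-table BM values (tr. t.), and the Smarca4 and Arid1a parts shrink from FL to BM, whereas the Chd4 share stays near 70%.

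Most members had the same leading transcript at both stages. The highest transcript was the same in 43 of the 45 expressed members, and the other 2 were Dpf1 and Dpf3, both low. Smarca2 had 3 linked transcripts: the coding Smarca2-201 went from 10.8 to 29.2 FPKM and Smarca2-202, annotated as a target of nonsense-mediated decay, from 4.85 to 18.9 FPKM. The coding form was therefore higher in BM too, and with coding transcripts alone the Smarca4 share moved by 24.7 points. Arid1b-201, its main coding form, went from 14.4 to 32.8 FPKM, and Atrx-202 from 12.1 to 27.7 FPKM. In 3 members the highest fetal transcript was not protein coding. Brd7-203, a processed transcript, held 59.2% of Brd7 in FL, the retained-intron form Dpf2-203 held 55.0% of Dpf2, and Smarcd3-205 held 99.1% of Smarcd3. Coding Smarcd3 was only at 0.0368 FPKM in FL and 0.232 in BM. Coding Brd7 was at 29.4 FPKM in FL and 22.2 in BM, and coding Dpf2 at 35.4 and 39.5. Levels of these 3 genes thus include RNA that the annotation does not read as protein, and so do those of other members. Such transcripts held 42.5% of Smarca5, 39.1% of Smarce1, 36.3% of Atrx and 26.3% of Hells in FL. Coding Atrx was at 20.7 FPKM in FL and 50.0 in BM, and coding Smarce1 at 58.6 and 49.3. Chd3-207, a coding model of only 430 bases, held 59.2% of Chd3 in FL and 56.6% in BM. Other short coding models also held large shares in FL. Srcap-202 (1257 bases) held 59.3% of Srcap, Ep400-206 (974 bases) 37.1% of Ep400 and Baz1a-204 (418 bases) 27.3% of Baz1a. The longer Srcap-201 was at 15.0 FPKM in FL and 16.3 in BM. Transcript shares moved most in low genes. Smarca1-202, nearly all of Smarca1 in FL at 0.193 FPKM, was at 0.398 in BM, or 37.9% of the gene there. Chd7-202, the main coding form of Chd7, went from 84.3% to 65.9% of its gene and from 3.98 to 0.922 FPKM. Shares also moved in Chd9, where Chd9-202 went from 66.3% to 84.1%, and in Smarcd2, where Smarcd2-201 went from 91.2% to 72.3%. Smarca5-201 went from 57.5% to 69.3% of its gene and Chd1-203 from 10.5% to 21.9%. Hells-206, a processed transcript, held 14.8% of Hells in FL and almost none in BM. Phf10-201 went from 93.6% to 77.6% of its gene. Retained-intron transcripts held 5.37% of the members' FPKM in FL and 7.56% in BM, and 3.37% and 3.96% over all linked transcripts.

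The other genes of these complexes, a list of 61 that holds the remaining subunits and related helicases, were also level: 1 of the 59 expressed was at least 2-fold higher, 1 was lower, and the median was -0.10. Each count is 1.69% of the list, against 13.3% higher and 8.82% lower among all expressed genes. The higher was Baz2b, an ISWI partner, at 18.4 FPKM in FL and 39.8 in BM. The lower was Cecr2, also an ISWI partner, at 4.30 FPKM in FL and 0.0826 in BM, and the gene table gave it 4.47 FPKM. The highest 3 by summed transcripts were Morf4l1, a TIP60 subunit (296 FPKM in FL and 314 in BM), and the NuRD genes Rbbp7 (202 FPKM and 158 FPKM) and Cdk2ap1 (177 FPKM and 121 FPKM). The gene table's BM column gave 116 FPKM for Cdk2ap1, so its place among the highest 3 depends on the table. Rbbp4, another NuRD gene and a histone chaperone, was at 10.2 FPKM in FL by summed transcripts and at 230 FPKM by the gene table's BM column, 21.4-fold apart, so its transcript sum is not reliable.

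Of the 5 higher members, 4 were long genes. Smarca2, Arid1b, Chd9 and Atrx each span over 100 kb, as do 14 of the 45, and Chd7, which was lower, does too. Of all 1401 expressed genes over 100 kb, 20.3% were at least 2-fold higher and 7.64% lower, with a median of 0.32, whereas genes under 10 kb had a median of -0.16. Across genes the correlation of log span with the ratio was r = 0.11 for all 12220 and r = 0.38 for the 45 members, which share their columns and are not independent. The part of gene length in these ratios was not tested.

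**Figure D4:**
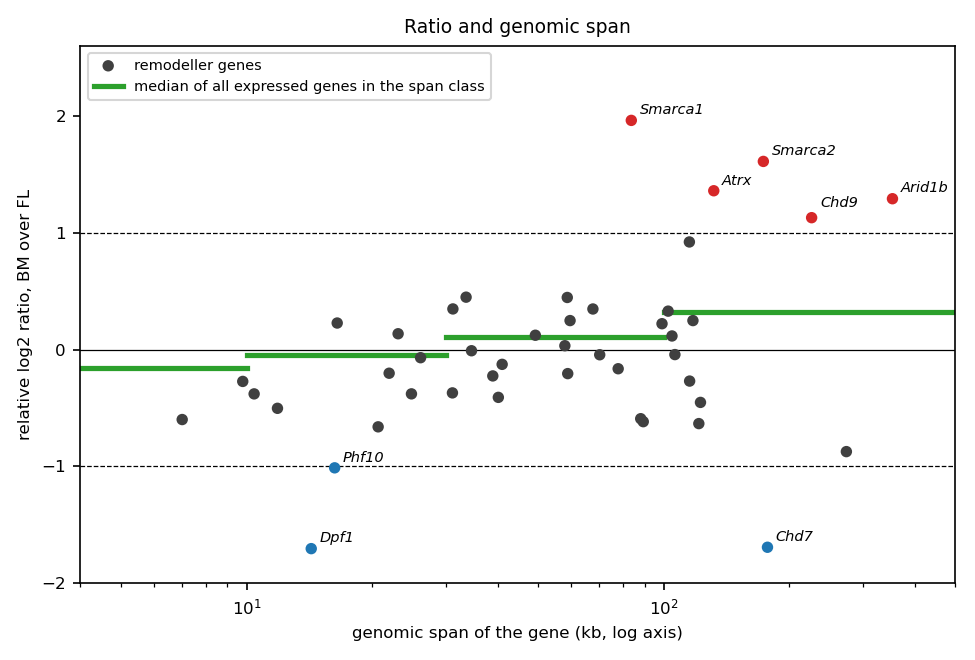
Relative log2 ratio of BM over FL against genomic span in kb (log axis) for the expressed remodeller genes, with green lines at the median of all expressed genes in each span class. Of the 5 higher members, 4 lie right of 100 kb, where the green line stands at 0.32.

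Markers of other cells also differed between the columns compared. From FL to BM, the 7 macrophage markers summed to 170 and 6.47 FPKM, all 7 at least 2-fold lower in BM. The 7 neutrophil and monocyte markers summed to 504 and 94.3 FPKM, with 5 lower, and the 6 megakaryocyte markers to 129 and 760 FPKM, with 4 higher. Of the 7 erythroid markers 6 were lower, with Alas2 at 0 in BM, although the sum was 453 FPKM in FL and 493 in BM, of which Car2 gave 252 and 469. The 5 hepatocyte markers summed to 18.8 and 3.10 FPKM, all 4 expressed ones lower. Endothelial markers summed to 90.6 and 87.5 FPKM, with 2 of 6 lower, and stromal markers to 10.7 and 13.5 FPKM, with 2 of the 3 expressed ones higher and Dcn at 0 in both. The part of these cells in the remodeller ratios was not tested.

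The FL column of the gene table stood apart from the other 3. Its endothelial markers summed to 2253 FPKM and its stromal markers to 750 FPKM, against 96.7 and 11.6 FPKM in the BM column of that table. Macrophage and megakaryocyte markers also summed higher there, to 555 and 352 FPKM against 180 and 140. HSC, erythroid, and neutrophil and monocyte markers summed lower, to 274, 101 and 130 FPKM against 508, 452 and 535. In the FL column of the gene table Smarca1 was at 3.26 FPKM and Chd7 at 10.4 FPKM, their highest values in any column. Smarca5 held 90.8% of its pair there. Smarcd3 was at 8.96 FPKM, Actl6b at 0.231 FPKM, and Chd4 at 95.5 FPKM. Arid1b, at 17.5 FPKM, and Atrx, at 32.3, lay near their FL values in the transcript table, and Chd9, at 3.89, lay below its own. Smarca2 was at 33.6 FPKM there, between its FL and BM values, and Smarca4 held 66.0% of that pair. Phf10 was at 37.4 FPKM and Dpf1 at 2.09, both close to the FL and not the BM column of the transcript table. Baz1a was at 10.04 FPKM and Srcap at 10.8, lower than in any other column, as were many members, Chd4 and Mta2 among them. The members summed to 1624 FPKM there, against 2316 in the BM column of that table. In the transcript table they summed to 2083 FPKM in FL and 1957 in BM. The FL column of the gene table entered none of the ratios, and the part of endothelial, stromal and other cells' RNA in these values was not tested.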

How the data were processed

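The authors deposited FPKM values per gene and per transcript. The submitters' processing notes name TopHat, Cufflinks, featureCounts, Subread and edgeR and the build mm9. Which gene annotation was counted is not stated there. The last decimals look like means of 3 values in the FL column of the gene table (66.4% repeating) and of 2 in the other columns (45.1% to 55.2% end in 5). Transcripts were linked to genes by identifier through GENCODE M21 (76507 of 87641), and unlinked ones held 10.4% of the FL and 10.9% of the BM FPKM. Linked FPKM were summed per gene, and log2 ratios used a pseudocount of 0.1 FPKM, which understates changes of low genes. Genes at 1 FPKM or more in either column were counted, and 2-fold was the line for naming a change. Centring moved ratios by 0.01. All members are named, and of the other complex genes those past 2-fold, the 3 highest, and Chd6, Daxx and Rbbp4. The members and lists were chosen with earlier results of these data known. One marker of the HSC list is not reported here. The count step was tested on simulated data. Whether counting used strand is not stated, and exons of 21 members overlap another gene, 8 of them a protein-coding one. Alternatives covered pseudocount, filter, scaling, transcript choice and fetal column, with coding transcripts only added after the data were seen. Python 3.11.15, numpy 2.4.6, pandas 2.3.3 and matplotlib 3.10.9 were used.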

Additional observations from a re-analysis of the deposited data

How the results depend on the processing

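The counts of 5 members higher and 3 lower, the median and the 4 families named were recomputed under each alternative. The lower count was 1 with a pseudocount of 1 FPKM and 1 with a filter of 5 FPKM, since Dpf1 and Phf10 no longer passed in the former and Dpf1 and Chd7 were left out by the latter. The higher count was 2 with the BM column of the gene table as the fetal value, when Smarca2, Arid1b and Chd9 did not pass. The median was 0.053 with upper-quartile scaling, which shifts all genes. The families were 7 with the highest transcript only. Chd1 with Chd2 joined the 4 families with protein-coding transcripts only (10.1 points) and with the gene-table fetal value (10.5 points). No member past 2-fold changed direction under any alternative run, and Atrx and Chd7 passed 2-fold wherever they had a value. All 8 calls were kept without centring, without a filter, with a pseudocount of 0.01 FPKM and with protein-coding transcripts only, which was chosen after the data were seen. No paired analysis was possible because the columns hold no replicates, and for the same reason no replicate could be left out. Depth is unknown, so how firmly low genes such as Smarca1 and Dpf1 are measured cannot be given.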
